A study of Drosophila melanogaster with 212 samples.

Results

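Synaptic vesicles release transmitter when SNARE proteins on the vesicle and on the plasma membrane zip together at the active zone, a protein scaffold that holds vesicles next to calcium channels. Priming factors assemble the SNARE complex, synaptotagmins sense calcium, an ATPase takes spent complexes apart, and clathrin adaptors, dynamin and lipid phosphatases retrieve the membrane. In octopaminergic and tyraminergic neurons of the fly, the vesicles are loaded with amine by the transporter Vmat. A list of 35 genes of this machinery was examined in single sorted neurons, and the genes were found by the symbol given first in the deposited annotation. Of the 35, 31 were listed under that symbol among the 17104 genes of the table. The other 4 (tomosyn, RIM-BP, syd-1 and endoA) were present as Tomosyn, Rbp, RhoGAP100F and EndoA, and are described apart from the counts below. All 31 passed the minimum mean of 20 CPM (counts scaled to the library's sum over listed genes) that left 5533 genes in the comparisons.

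The neurons came from brains of nervy-mutant males, wild-type males, nervy-mutant females and wild-type females, and all 4 groups carried a membrane-bound GFP reporter. The driver of the reporter and the mutant allele were not named in the labels. Flies had been housed 15 to a vial for 6 days, and each neuron was sorted by fluorescence into its own well before Nextera XT library preparation and sequencing. The labels named no animal, so the cells of a group count as 1 sample, and differences below have neither a replicate check nor a test. Intervals are exact Poisson (sums) or Clopper-Pearson (shares) intervals at 95% and cover counting error only.

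There were 56 cells from mutant males, 51 from wild-type males, 54 from mutant females and 51 from wild-type females. In all, 175 had enough counts and at least 100 CPM of Tdc2, the neuronal enzyme that makes tyramine: 44 from mutant males, 38 from wild-type males, 49 from mutant females and 44 from wild-type females. Their totals ran between 20875 and 3045780 counts. The sorted type's markers were abundant in all 4 groups, with Tdc2 at 5155 to 6000, Tbh (which turns tyramine into octopamine) at 11870.4 to 16050.3 and Vmat at 87451 to 99339 CPM. The mutated gene nvy was at 7.38 CPM in mutant males, 17.5 in wild-type males, 9.85 in mutant females and 14.6 in wild-type females. Some columns were near-identical across genotypes (8 male pairs and 1 female pair with a correlation of at least 0.95), and these were kept as labelled. The 6 glial markers summed to 2702 CPM in mutant males, 1823 in wild-type males, 92.1 in mutant females and 144.8 in wild-type females. The running number in the column names was 96 or lower for 28 of 44 mutant male, 20 of 38 wild-type male, 0 of 49 mutant female and 4 of 44 wild-type female cells, and every male number above 96 was lower than every female number above 96, so that sex and running number cannot be told apart there.

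The 31 genes together took 2.83% of counts in mutant males, 2.85% in wild-type males, 3.31% in mutant females and 3.36% in wild-type females. Per cell, their summed level was 4873 to 41784 CPM with a median of 29655 in mutant males and 4214 to 35212 CPM with a median of 28866 in wild-type males. In females it was 23574 to 47882 CPM with a median of 34286 in mutants and 20705 to 42466 CPM with a median of 34541 in wild type. The male and female cells overlapped widely. The lowest male cells had at least 500 CPM of glial markers, as 9 mutant male, 12 wild-type male, 2 mutant female and 4 wild-type female cells did. Without those cells the lowest sums were 20673 CPM in mutant males, 21341 in wild-type males, 23574 in mutant females and 20705 in wild-type females. The complexin gene cpx alone supplied 27.2% of the counts of the 31 genes, nSyb 10.5% and shi 7.27%. Per kilobase of listed transcript, the order over the 4 groups was nSyb (908 CPM per kb), cpx (868) and Snap25 (616) at the top. This scaling sets genes of different length side by side only if reads cover the listed transcript evenly, which was not checked. Spn (13.5), Liprin-alpha (13.5) and Nsf2 (10.5) were at the bottom, and their order differed between groups. Scaffold genes of the active zone lay in the lower part of the order, with Nrx-1 (75.8) the highest of them and brp at 34.1 CPM per kb.

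**Figure D1:**
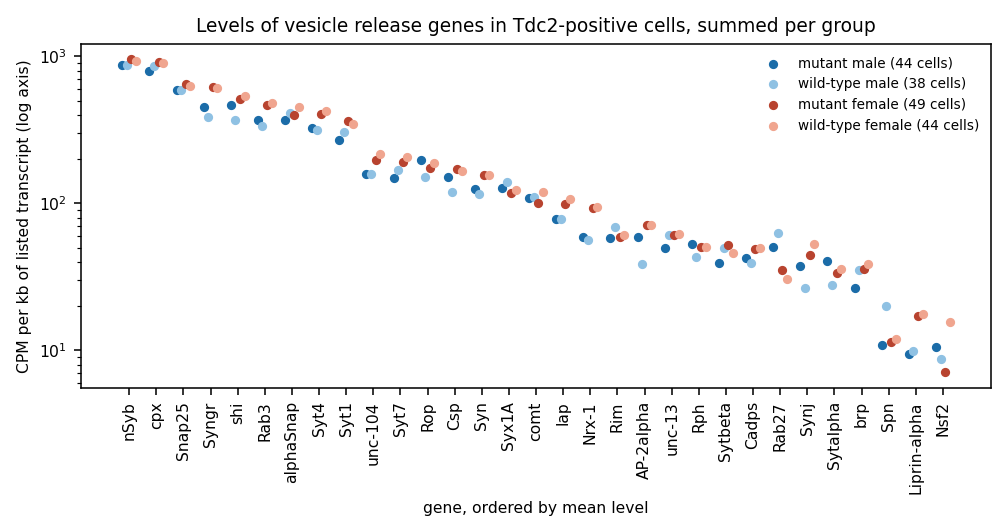
Level of each of the 31 genes (CPM per kilobase of listed transcript, log axis) in the summed Tdc2-positive cells, with 1 point per group. nSyb and cpx stand highest in all 4 groups, and the highest group is 1.5-fold or more above the lowest for Nsf2 (2.19-fold), Rab27, Synj, Liprin-alpha, AP-2alpha, Spn, Nrx-1 and Syngr (1.59-fold).

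The SNARE genes themselves varied little between groups. nSyb (FBgn0013342, 3L from 1630348 to 1637752 on the dm6 build), the neuronal synaptobrevin of the vesicle, measured 3126 CPM in mutant males, 3090.5 in wild-type males, 3391 in mutant females and 3319 in wild-type females. Syx1A, the plasma membrane syntaxin, measured 529 CPM in mutant males, 583 in wild-type males, 488 in mutant females and 515 in wild-type females. Snap25, the third SNARE partner, stood at 1304 CPM in mutant males, 1323 in wild-type males, 1447 in mutant females and 1399.5 in wild-type females. All their ratios between groups lay between -0.15 and 0.18 on the log2 scale, and Syx1A was the 1 of these genes higher in males than in females in both genotypes. Of the exon bases of Syx1A, 10.7% are shared with eIF4EHP on the same strand, so part of its counts could belong to that gene.

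Among the factors that assemble and prime the complex, Rop, the Sec/Munc family partner of syntaxin, measured 517 CPM in mutant males, 398 in wild-type males, 457 in mutant females and 494 in wild-type females. Its mutant over wild type log2 ratio was 0.38 in males and -0.11 in females. The priming factor unc-13 stood at 507 CPM in mutant males, 628 in wild-type males, 629 in mutant females and 635 in wild-type females, so that mutant males were the lowest group and the other 3 were alike. Its exons overlap annotated opposite-strand RNAs and a transposon over 28.4% of their bases, and whether counting used strand was not given. The clamp protein complexin, from cpx (FBgn0041605, 3R from 4280221 to 4304604), reached 7659.8 CPM in mutant males, 8306 in wild-type males, 8879 in mutant females and 8743 in wild-type females. Cadps, which primes dense-core vesicles, was at 236.3 CPM in mutant males, 219.7 in wild-type males, 271.2 in mutant females and 274.9 in wild-type females, with both male groups below both female groups.

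The genes that take SNARE complexes apart differed strongly in level. comt, the neuronal form of the NSF ATPase, measured 334 CPM in mutant males, 339 in wild-type males, 312 in mutant females and 366 in wild-type females. The paralogue Nsf2 (FBgn0266464, 3R from 13833497 to 13837991) measured 36.99 CPM in mutant males, 30.7 in wild-type males, 25.1 in mutant females and 54.9 in wild-type females. Per kilobase, comt was 10.3-fold above Nsf2 in mutant males, 12.6-fold in wild-type males, 14.2-fold in mutant females and 7.60-fold in wild-type females, and it was the higher of the pair in every cell but 1, in the wild-type female group. alphaSnap, the adaptor that brings the ATPase to the complex, stood at 757 CPM in mutant males, 844 in wild-type males, 829 in mutant females and 935 in wild-type females. Within each sex alphaSnap was lower in the mutant, by log2 ratios of -0.16 in males and -0.17 in females, which is under the 1.5-fold used as a threshold throughout.

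Of the calcium sensors, Syt1, which triggers fast release, measured 1579.7 CPM in mutant males, 1784 in wild-type males, 2122 in mutant females and 2033 in wild-type females, and was lower in both male groups than in both female groups. Syt7, a slower sensor in mammals, stood at 419.7 CPM in mutant males, 473 in wild-type males, 542 in mutant females and 580.1 in wild-type females. Syt1 exceeded Syt7 per kilobase by 1.69-fold to 1.88-fold over the 4 groups. Syt4, which in the fly is also known for signalling back from the postsynaptic cell, was at 1015 CPM in mutant males, 973 in wild-type males, 1255 in mutant females and 1319 in wild-type females. Sytalpha and Sytbeta, less studied members of the family, were lower: Sytalpha had 119.00 CPM in mutant males, 81.3 in wild-type males, 97.8 in mutant females and 104.95 in wild-type females, and Sytbeta 154.5 CPM in mutant males, 195.9 in wild-type males, 205.9 in mutant females and 182.7 in wild-type females. Per kilobase the ratio of Sytalpha to Sytbeta was 1.04 in mutant males, 0.559 in wild-type males, 0.639 in mutant females and 0.773 in wild-type females, and Sytalpha was the higher of the pair in 18 of 44 mutant male, 14 of 38 wild-type male, 12 of 49 mutant female and 15 of 44 wild-type female cells.

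Rab proteins and their effectors did not move as a block. Rab3, the small GTPase of synaptic vesicles, measured 1393 CPM in mutant males, 1252 in wild-type males, 1739 in mutant females and 1796 in wild-type females, lower in males of both genotypes. Rab27, a related GTPase of secretory granules, went the other way at 78.4 CPM in mutant males, 97.7 in wild-type males, 55.1 in mutant females and 47.7 in wild-type females, with both male groups above both female groups. The effector gene Rph, for rabphilin, stood at 175.95 CPM in mutant males, 144.1 in wild-type males, 167.7 in mutant females and 167.6 in wild-type females. Rim, which ties Rab3 and calcium channels to the active zone, was at 628 CPM in mutant males, 748 in wild-type males, 639.8 in mutant females and 661 in wild-type females, highest in wild-type males.

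In the active zone scaffold, brp, the Bruchpilot protein that forms the electron-dense projection, measured 315 CPM in mutant males, 422 in wild-type males, 425 in mutant females and 458 in wild-type females, lowest in mutant males. Liprin-alpha, an organiser of the scaffold, was at 56.6 CPM in mutant males, 58.8 in wild-type males, 101.8 in mutant females and 105.3 in wild-type females. The adhesion molecule gene Nrx-1, for neurexin, stood at 569 CPM in mutant males, 545 in wild-type males, 892 in mutant females and 914 in wild-type females. For both of these the female groups were alike and clearly above the male groups. Spn, for spinophilin, a phosphatase-binding scaffold protein, was at 110.2 CPM in mutant males, 201.5 in wild-type males, 115.7 in mutant females and 120.9 in wild-type females, with wild-type males apart from the other 3 groups.

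All 4 genes for vesicle proteins and transport were lower in males than in females in both genotypes, as were 33.6% of all genes used and a larger share of those with long transcripts (described with the sex comparison). Synapsin, which tethers vesicles in the reserve pool, is encoded by Syn and measured 726 CPM in mutant males, 674 in wild-type males, 897 in mutant females and 898 in wild-type females. Csp, a chaperone of the SNARE proteins on the vesicle, stood at 439.9 CPM in mutant males, 343 in wild-type males, 492 in mutant females and 483 in wild-type females. Syngr, for the vesicle membrane protein synaptogyrin, was at 1216 CPM in mutant males, 1054 in wild-type males, 1673 in mutant females and 1647 in wild-type females. The kinesin gene unc-104, whose motor carries vesicle precursors down the axon, had 1201 CPM in mutant males, 1200.2 in wild-type males, 1498 in mutant females and 1656 in wild-type females. Csp and Syngr were lowest in wild-type males, whereas unc-104 had nearly the same level in both male groups.

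The recycling genes showed the same order of sexes. shi, the fly dynamin that pinches vesicles off, measured 2208 CPM in mutant males, 1760.3 in wild-type males, 2435 in mutant females and 2552 in wild-type females. The large subunit of the clathrin adaptor, AP-2alpha, stood at 278.7 CPM in mutant males, 183.2 in wild-type males, 337 in mutant females and 336 in wild-type females. Synj, for the lipid phosphatase synaptojanin that helps to uncoat vesicles, was at 173.2 CPM in mutant males, 123.01 in wild-type males, 208.2 in mutant females and 244.8 in wild-type females. lap, for the AP180 clathrin assembly protein, had 407 CPM in mutant males, 405 in wild-type males, 517 in mutant females and 555 in wild-type females. shi, AP-2alpha and Synj were lowest in wild-type males, with mutant males between them and the females. Among male cells numbered above 96, however, the mutant over wild type log2 ratio was -0.04 for AP-2alpha, while it was 0.33 for Synj.

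The 4 genes listed under another symbol had levels within the range of the 31. Tomosyn, an inhibitor of SNARE assembly, measured 371 CPM in mutant males, 329 in wild-type males, 571 in mutant females and 561 in wild-type females. Rbp, the RIM-binding protein, was at 331 CPM in mutant males, 399.9 in wild-type males, 455 in mutant females and 500.3 in wild-type females. RhoGAP100F, which encodes the active zone assembly protein Syd-1, stood at 68.1 CPM in mutant males, 113.2 in wild-type males, 114.96 in mutant females and 141.2 in wild-type females, lowest in mutant males. EndoA, for the membrane-bending protein endophilin, had 782 CPM in mutant males, 669.7 in wild-type males, 1102 in mutant females and 1012 in wild-type females. All 4 were lower in males than in females in both genotypes (33.6% of all genes used were), with log2 ratios of -0.62 in mutants and -0.77 in wild type for Tomosyn, and of -0.75 in mutants and -0.32 in wild type for RhoGAP100F.

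Most of the machinery was read in nearly every neuron. Of the 31 genes, 14 had a count in each of the 175 cells. nSyb was the steadiest, with a lowest, median and highest value over all cells of 178.7, 3314 and 5352 CPM and an interquartile range of 20.7% of the median. Next came shi, at 36.9%, and alphaSnap, at 40.7%. At the other end, Nsf2 had no count in 62 of 175 cells and Sytalpha none in 57, and their interquartile ranges were 363% and 353% of the median. After each cell was thinned to 210000 reads (2 mutant male, 3 wild-type male, 6 mutant female and 6 wild-type female cells were too shallow and left out), Nsf2 was read in 66.7% (28 of 42, interval 50.5% to 80.4%) of mutant male, 68.6% (24 of 35, interval 50.7% to 83.1%) of wild-type male, 44.2% (19 of 43, interval 29.1% to 60.1%) of mutant female and 63.2% (24 of 38, interval 45.99% to 78.2%) of wild-type female cells. Without thinning these shares were 70.5% of mutant male, 71.1% of wild-type male, 48.98% of mutant female and 70.5% of wild-type female cells. Sytalpha was read after thinning in 69.05% (29 of 42, interval 52.9% to 82.4%) of mutant male, 62.9% (22 of 35, interval 44.9% to 78.5%) of wild-type male, 69.8% (30 of 43, interval 53.9% to 82.8%) of mutant female and 63.2% (24 of 38, interval 45.99% to 78.2%) of wild-type female cells. For both genes the intervals of all 4 groups overlapped.

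The cells with Sytalpha formed a broad band, and its per-cell values were 0 to 643 CPM with a median of 60.3 in mutant males, 0 to 368 CPM with a median of 54.2 in wild-type males, 0 to 598 CPM with a median of 48.3 in mutant females and 0 to 829 CPM with a median of 49.1 in wild-type females. Its medians were thus close together, and the differences between summed levels lay in the upper cells: the top cell held 13.1% of the mutant male, 19.2% of the wild-type male, 11.9% of the mutant female and 17.9% of the wild-type female counts. Rank correlations between members within a group were low. Over the 465 pairs, the median Spearman coefficient was 0.26 in mutant males, 0.27 in wild-type males, 0.04 in mutant females and 0.08 in wild-type females. Without the cells with at least 500 CPM of glial markers it was 0.15 in mutant males, 0.11 in wild-type males, 0.04 in mutant females and 0.06 in wild-type females. Nrx-1 and unc-104 were the pair with the highest coefficient in their lowest group: 0.40 in mutant males, 0.72 in wild-type males, 0.38 in mutant females and 0.50 in wild-type females. Cells of a group share library preparation and differ in depth, so these coefficients are a description.

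**Figure D2:**
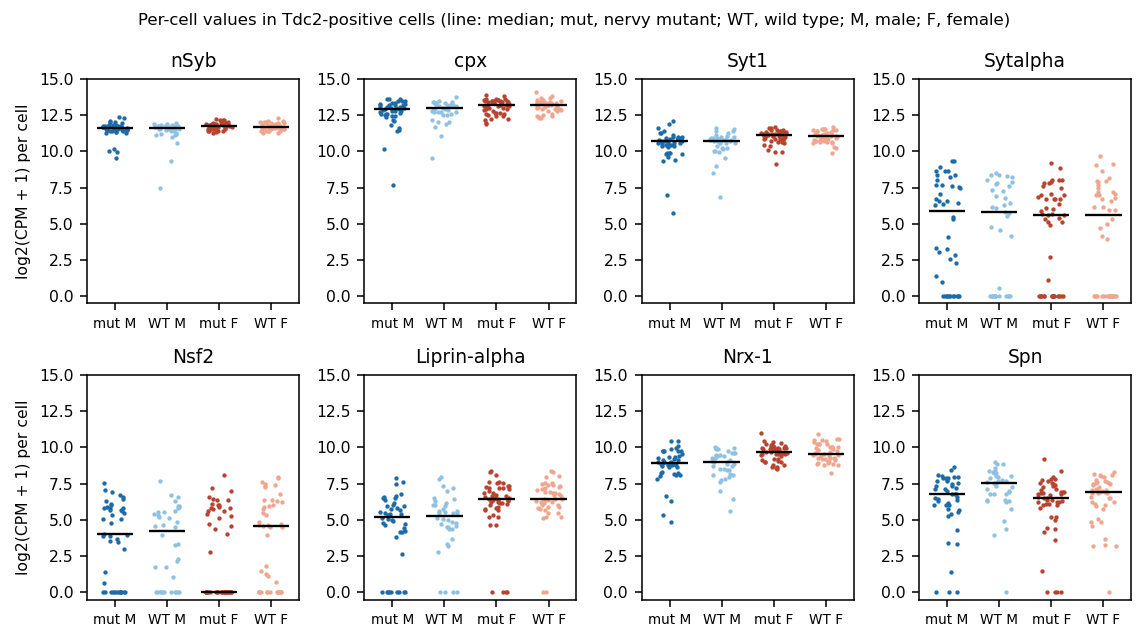
Per-cell values of 8 genes (log2 of CPM + 1) in the 4 groups, where each point is 1 cell and the line the median. nSyb, cpx and Syt1 form tight bands in all groups apart from a few low male cells, Sytalpha and Nsf2 have many cells at 0, and Liprin-alpha and Nrx-1 sit lower in both male groups.

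The machinery as a group stood at about the same level in nervy mutants as in wild type. The median log2 ratio of the 31 genes, mutant over wild type, was 0.01 in males, where that of all genes used was 0.01 too, and -0.05 in females, against 0.02 for all genes used. In males, AP-2alpha was the 1 gene at least 1.5-fold higher (6.94% of all genes used were) and Spn the 1 gene at least 1.5-fold lower (6.16%). In females 0 of 31 were that much higher (7.1%) and Nsf2 alone was that much lower (5.33%). In both sexes together, 0 of 31 were higher (0.741%) and 0 lower (0.578%). By any amount, 14 of 31 were lower in mutant males, against a background of 48.8%, and 21 of 31 in mutant females, against 47.6%. The genotype ratios of the 31 genes in females were narrow apart from Nsf2, from -0.23 for Synj to 0.20 for Rab27.

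Nsf2 was at 25.1 CPM (interval 23.5 to 26.8) in mutant females and 54.9 CPM (interval 52.8 to 57.2) in wild-type females, a log2 ratio of -1.10 (counting interval -1.24 to -1.02). Its per-cell values were 0 to 274.2 CPM with a median of 0 in mutant females and 0 to 246.96 CPM with a median of 23.2 in wild-type females, so that the groups overlapped. In mutant females 24 of 49 cells had a count, against 31 of 44 in wild-type females, and the top cell held 22.3% of the wild-type female counts. With the mean of per-cell CPM in place of sums, the ratio was -0.64. In males Nsf2 had 36.99 CPM (interval 35.3 to 38.8) in mutants and 30.7 CPM (interval 29.04 to 32.4) in wild type, a log2 ratio of 0.26 (counting interval 0.17 to 0.37), opposite in sign to that of females.

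In mutant males Spn (FBgn0010905, 3L from 2505245 to 2554292) was at 110.2 CPM (interval 107.2 to 113.2), against 201.5 CPM (interval 197.3 to 205.8) in wild-type males, a log2 ratio of -0.86 (counting interval -0.92 to -0.82), and 31 of 44 mutant male cells lay below the wild-type male median. In females its ratio was -0.06. AP-2alpha (FBgn0264855, 2L from 408030 to 414777) was at 278.7 CPM (interval 273.9 to 283.5) in mutant males, against 183.2 CPM (interval 179.1 to 187.3) in wild-type males, a ratio of 0.60 (counting interval 0.56 to 0.65), while in females it was 0.01. Per cell the groups lay closer, with 17 of 44 mutant male cells below the wild-type male median and medians of 230.6 CPM (mutant) against 203.9 CPM (wild type). Both male differences lay in the cells with running numbers up to 96 (28 mutant, 20 wild-type), where Spn had a ratio of -1.47 and AP-2alpha of 0.90. There, 10 of 31 genes were at least 1.5-fold apart, 7 higher (17.3% of all genes used were) and 3 lower (12.6%). Among male cells numbered above 96 (16 mutant, 18 wild-type), the ratios were -0.13 for Spn and -0.04 for AP-2alpha. In that range 0 of 31 genes were that far apart, against 5.48% of all genes used higher and 9.76% lower. With every near-identical column removed, within and across groups, which left 35 mutant and 27 wild-type male cells, the ratios were -1.01 for Spn and 0.70 for AP-2alpha. Without the cells with at least 500 CPM of glial markers, Spn was at -0.70 and AP-2alpha at 0.51, the second under the threshold.

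**Figure D3:**
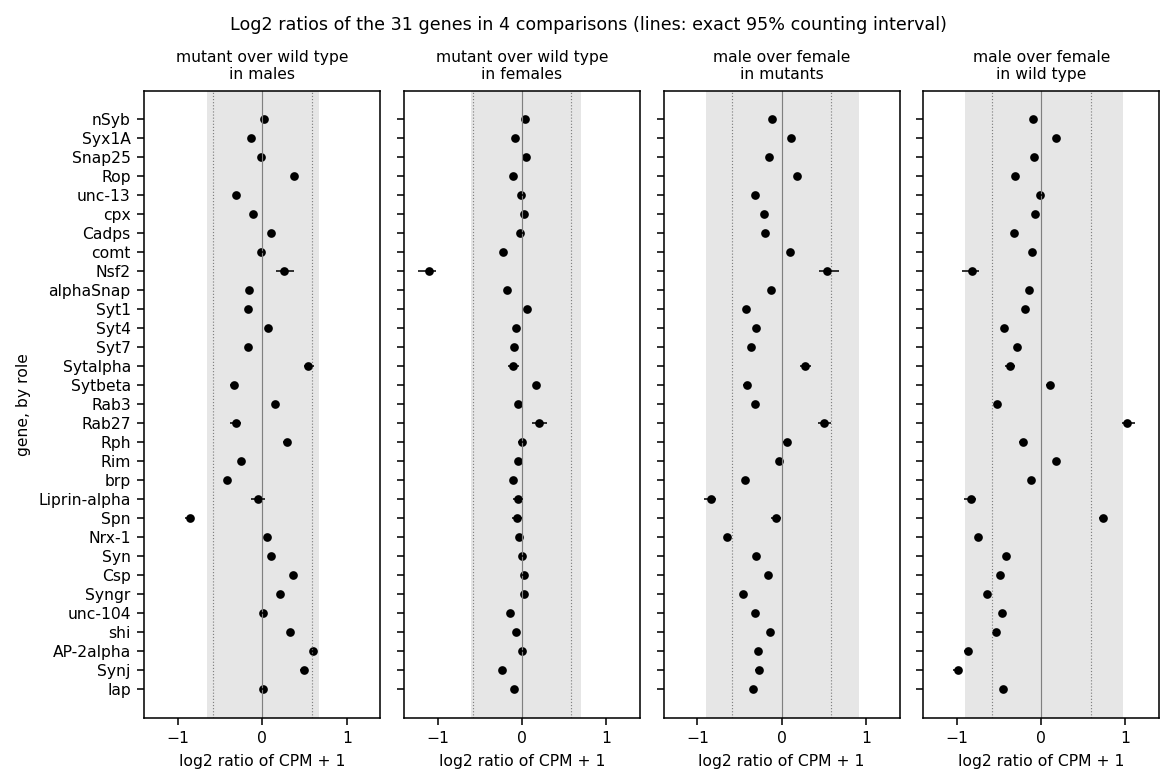
Log2 ratios of the 31 genes in 4 comparisons, with genes in order of role. Points are ratios of CPM + 1, short lines exact 95% counting intervals, dotted lines the 1.5-fold threshold and the grey band the 5th to 95th percentile of all 5533 genes used. In the genotype comparisons the points centre on 0, with Spn in males and Nsf2 in females outside the band, whereas most male over female ratios lie below 0.

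Between the sexes most of the machinery was lower in males. The median male over female log2 ratio of the 31 genes was -0.21 in mutants and -0.31 in wild type, where all genes used had medians of 0.01 and 0.03. By any amount, 24 of 31 were lower in mutant males than in mutant females (background 48.6%), 26 of 31 in wild-type males than in wild-type females (47.9%), and 21 of 31 in both (33.6%). The 31 are mostly long transcripts, and long transcripts were more often lower in males. From 4000 bases on, 15 of 16 members were lower in males in mutants, where 75.9% of all genes of that length were, and 13 of 16 in wild type, against 68.5%. From 2000 to 3999 bases, 9 of 14 members were lower in males in mutants, against 61.5% of all genes of that length, and 13 of 14 in wild type, against 66.5%. After the median of all genes of the same length class was subtracted, the median of the 31 was -0.0037 in mutants and -0.11 in wild type. All 4 genes of vesicle proteins and transport and all 4 of recycling were among the 21, with Syt1, Syt4, Syt7, Rab3 and cpx. Few reached 1.5-fold. In mutants 0 of 31 were that much higher (13.8%) and 2 that much lower (12.9%). In wild type Rab27 and Spn were higher (2 of 31, background 16%), and AP-2alpha, Liprin-alpha, Nrx-1, Nsf2, Syngr and Synj lower (6 of 31, background 13.6%). In both genotypes 0 of 31 were higher (6.72%), and Liprin-alpha and Nrx-1 were lower (2 of 31, background 5.28%), but both were under the threshold in both genotypes after that subtraction.

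Liprin-alpha (FBgn0046704, 2L from 6723903 to 6732766) was at 56.6 CPM (interval 54.5 to 58.8) in mutant males, against 101.8 CPM (interval 98.6 to 105.1) in mutant females. In wild type it had 58.8 CPM (interval 56.5 to 61.1) in males, against 105.3 CPM (interval 102.3 to 108.3) in females. Its log2 ratio was -0.83 in both genotypes. Per cell the values were 0 to 236.9 CPM with a median of 36.3 in mutant males and 0 to 330.4 CPM with a median of 85.4 in mutant females. In wild type they were 0 to 246.2 CPM with a median of 38.02 in males and 0 to 329.98 CPM with a median of 86.7 in females. Ranges overlapped, but 36 of 44 mutant male cells lay below the mutant female median and 32 of 38 wild-type male cells below the wild-type female median.

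Nrx-1 (FBgn0038975, 3R from 22468512 to 22486969) was at 569 CPM (interval 562 to 575) in mutant males and 892 CPM (interval 882 to 901) in mutant females, with a log2 ratio of -0.65. In wild type it was at 545 CPM (interval 538 to 552) in males and 914 CPM (interval 905 to 923) in females, with a ratio of -0.74. Per cell the values were 27.9 to 1409 CPM with a median of 490.03 in mutant males and 357 to 1996 CPM with a median of 834 in mutant females, against 47.3 to 1047 CPM with a median of 502 in wild-type males and 297.8 to 1921 CPM with a median of 763 in wild-type females. Again the groups overlapped, with 34 of 44 mutant male and 29 of 38 wild-type male cells below the female median of their genotype. Among cells numbered above 96, where the sexes share no running number, the ratios were -1.59 in mutants and -1.33 in wild type for Liprin-alpha, and -1.09 in mutants and -0.88 in wild type for Nrx-1. Without the cells with at least 500 CPM of glial markers they were -0.83 in mutants and -0.97 in wild type for Liprin-alpha, and -0.63 in mutants and -0.67 in wild type for Nrx-1. With all near-identical columns removed, Nrx-1 fell under the threshold in both genotypes, at -0.48 in mutants and -0.56 in wild type, and Liprin-alpha stood at -0.63 in mutants and -0.59 in wild type.

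In wild type, Synj had the lowest male over female ratio of the 31, at -0.99 (counting interval -1.04 to -0.95), with 35 of 38 male cells below the female median. AP-2alpha followed at -0.87 (counting interval -0.92 to -0.84), with 34 of 38. In mutants the ratio was -0.26 for Synj, with 36 of 44 male cells below the female median, and -0.27 for AP-2alpha, with 28 of 44. With the mean of per-cell CPM in place of sums, the mutant ratio of Synj was -0.55. Among cells numbered above 96, AP-2alpha was at -0.94 in mutants and -0.69 in wild type, so its smaller ratio in mutants was not seen there. Synj was at -0.35 in mutants and -0.88 in wild type in that range. Rab27 (FBgn0025382, X from 1473884 to 1476974) had a ratio of 0.50 (counting interval 0.43 to 0.59) in mutants and of 1.02 (counting interval 0.96 to 1.11) in wild type, the highest of the 31 in wild type. The wild-type Rab27 ratio was sensitive to cells with little Tdc2. In wild-type females, 4 cells with under 100 CPM of Tdc2 held 470 CPM of Rab27, 1 of them 1457 CPM. With all kept cells included the wild-type ratio was 0.07, whereas it stayed past 1.5-fold in 16 of 18 alternatives. Some of these alternatives, such as other CPM minimums, cannot alter the ratio of a single gene. Rab27 (1559 bases) was the 1 member from 1000 to 1999 bases, a class in which all genes used had a wild-type median of 0.23. Spn had opposite signs, -0.07 in mutants and 0.73 in wild type, but among cells numbered above 96 it was at 0.23 in mutants and 0.26 in wild type.

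Transcript length moved with the sex ratios of all genes. The 31 genes had long listed transcripts, with a median of 4161 bases, against 2309 for all genes used, and 28 of 31 exceeded the median of all genes used. Over all genes used, the median male over female log2 ratio in mutants was 0.51 for transcripts under 1000 bases, 0.21 from 1000 to 1999, -0.13 from 2000 to 3999 and -0.29 from 4000 bases on. In wild type these medians were 0.59, 0.23, -0.18 and -0.27 in the same order of length. The 16 members of at least 4000 bases had medians of -0.29 in mutants and -0.37 in wild type. Once the median of its length class was subtracted from each ratio, Liprin-alpha was at -0.54 in mutants and -0.56 in wild type, and Nrx-1 at -0.35 in mutants and -0.47 in wild type, all under the 1.5-fold threshold. For Liprin-alpha this was the only such setting: in each genotype it was past the threshold in 17 of 18 alternatives, and Nrx-1 in 15 of 18. These counts include settings that cannot alter the ratio of a single gene (other CPM minimums and the genes under another symbol). Among cells numbered above 96, genes of at least 4000 bases had medians of -0.61 in mutants and -0.48 in wild type. The part of length, running number and glial RNA in the sex differences of the 31 genes was not tested.

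**Figure D4:**
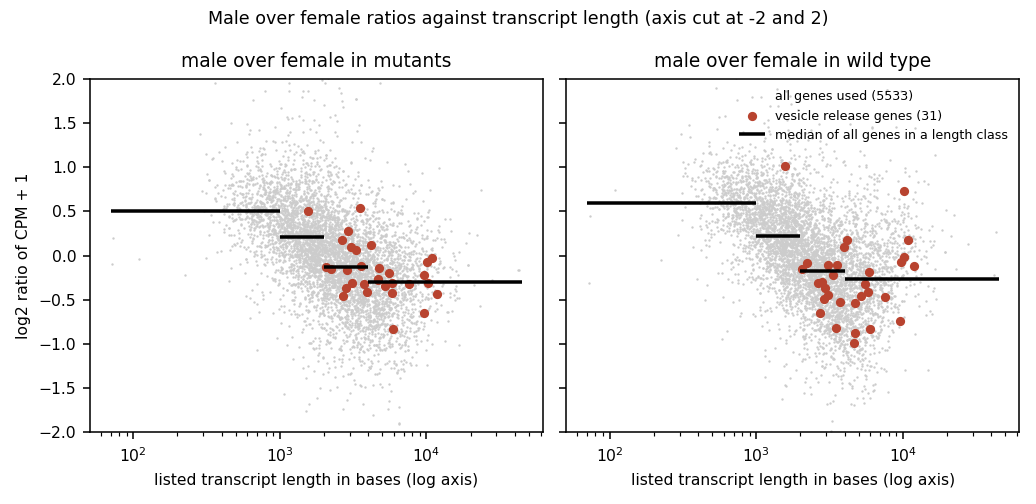
Male over female log2 ratio of CPM + 1 against listed transcript length (log axis) in mutants and in wild type, with all genes used in grey, the 31 vesicle release genes in red and the median of all genes in each length class as a black line. The class medians step down from short to long transcripts in both genotypes, and the red points lie at the long end around the lines.

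Among the Tdc2-positive cells, 14 had under 100 CPM of Tbh (3 from mutant males, 4 from wild-type males, 3 from mutant females and 4 from wild-type females), as a neuron that makes tyramine but little octopamine would. They were compared within each group with the other 161 cells. Many release genes stood higher in these few cells. By any amount and in 4 of 4 groups, 11 of 31 were higher (background 11%) and 1 was lower (background 10.3%). At 1.5-fold in 4 of 4 groups, 0 of 31 were higher (1.28%) and 0 lower (3.45%). The 11 were nSyb and Syx1A of the SNARE proteins, Rop, comt and alphaSnap of the factors that assemble and disassemble them, Syt1, Syt7, Rph, Syn, shi and Synj. Some were near 0 in a group: Synj at 0.0078 and nSyb at 0.04 in mutant females, and Syt1 at 0.06 in wild-type males. Cells with at least 500 CPM of glial markers were kept in this comparison.

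Syx1A measured 756 against 517 CPM in mutant males, 969 against 534 CPM in wild-type males, 1003 against 445 CPM in mutant females and 776 against 490.02 CPM in wild-type females, where each pair gives the cells with little Tbh against the other cells. Its log2 ratios were 0.55 in mutant males, 0.86 in wild-type males, 1.17 in mutant females and 0.66 in wild-type females. Those of the rabphilin gene Rph were 0.85 in mutant males, 1.05 in wild-type males, 1.99 in mutant females and 0.52 in wild-type females. The NSF gene comt had 1.10 in mutant males, 0.27 in wild-type males, 0.71 in mutant females and 0.48 in wild-type females. Syn was the most even, from 0.35 to 0.45 in the 4 groups. Nrx-1 was the gene lower in all groups, with ratios of -0.35 in mutant males, -0.75 in wild-type males, -0.66 in mutant females and -0.43 in wild-type females. Sytalpha had ratios of 1.70 in mutant males, -0.07 in wild-type males, 1.35 in mutant females and 2.07 in wild-type females, so it was above 1 in 3 groups and slightly below 0 in wild-type males. These cells also had more Tdc2 in each group, with log2 ratios between 0.67 and 1.07, and they were too few for any member to be compared within a running-number range.

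**Figure D5:**
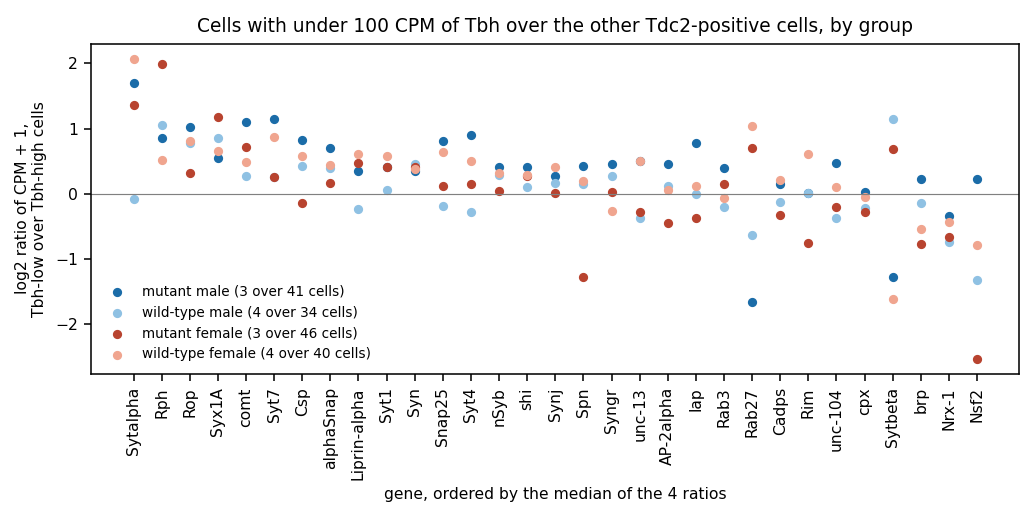
Log2 ratio of CPM + 1 between Tdc2-positive cells with under 100 CPM of Tbh and the other Tdc2-positive cells, with 1 point per group and genes ordered by the median of the 4 ratios. Syx1A, Rop, Rph, comt and Syn have all 4 points above 0, Nrx-1 has all 4 below, and Rab27 and Sytbeta are split.

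Other genes of vesicle release and membrane traffic gave a comparison set of 41, of which 40 were listed and 37 passed the minimum. Among them were genes for calcium channels, endocytosis, other SNAREs, other synaptotagmins and endosomal Rabs, and not all are particular to the presynaptic terminal. Their median mutant over wild type log2 ratios were -0.02 in males and 0.07 in females. Their median male over female log2 ratios were -0.02 in mutants and -0.01 in wild type. These sex medians were not corrected for transcript length, which moved with the sex ratios of all genes used. Whether the set matches the main list of release genes in length was not tested. The sex medians therefore cannot show whether lower male levels were particular to the main list. At 1.5-fold, 0 of 37 were apart in 1 direction in both sexes (background 0.741% higher and 0.578% lower) or in both genotypes (background 6.72% higher and 5.28% lower). In mutants, 1 of 37 was that much higher in males (Clc, background 13.8%) and 1 of 37 that much lower (Ca-beta, background 12.9%). In wild type, 2 of 37 were that much lower in males (background 13.6%), the endocytic adaptors Dap160 (-0.92) and Eps-15 (-0.96), and 2 of 37 that much higher (background 16%), the syntaxin genes Syx17 (0.59) and Syx18 (0.84). Other endocytic genes of the set went both ways. In wild type AP-2sigma was at 0.55, Clc at 0.23, Amph at 0.17 and AP-2mu at -0.03. Lower still in wild type were aux (-0.14), stnA and stnB (-0.15 each), Hsc70-4 (-0.33), nwk (-0.56) and Chc (-0.58). The calcium channel gene cac had male over female ratios of -0.41 in mutants and -0.02 in wild type. stnA and stnB, which share a transcript, had nearly the same counts and cannot be told apart.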

How the data were processed

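Single sorted neurons of Drosophila melanogaster were profiled by RNA sequencing. The deposited counts were made by the authors with HOMER (analyzeRepeats.pl, exons, dm6, unnormalised, transcripts condensed to 1 per gene), per the file headers. FastQC, HOMER and edgeR are named in the submitters' processing notes, and the aligner, the versions and the use of strand are not given in the sources used here. The deposited values were multiples of 0.5, of which 56.2% of those above 0 were whole, and were handled as estimated counts.

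Cells with under 10000 counts or under 500 genes were left out (13 of 212). Columns of 1 group with a correlation of at least 0.95 (10 pairs) were averaged, and 9 pairs across genotypes were kept. Counts were summed over the Tdc2-positive cells of a group and scaled to CPM over all listed genes, and ratios were of log2(CPM + 1), which understates ratios of low genes. The 4 groups were 1 sample each, so no test was made, and a model of genotype and sex, which would leave 1 residual degree of freedom, was not fitted. Shares of cells with a count were compared after each cell was thinned to 210000 reads. All 31 genes were to be named whatever their values. Those with per-cell values were the genes 1.5-fold apart in both sexes or both genotypes, the 3 highest and 3 lowest per kilobase and 3 pairs of paralogues, with others added after their values were seen. The members, the lists and the cells with little Tbh were chosen with earlier results of these data known. There were 18 other settings tried from the start and 5 added after seeing the data. Gene positions came from Ensembl's annotation of the same build. Python 3.11.15, numpy 2.4.6, scipy 1.17.1 and pandas 2.3.3 were used, and the calculations were tested on simulated data.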

Additional observations from a re-analysis of the deposited data

Results flagged for a closer look

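Some signs of difference between groups stood out by direction and were not tested. The genotype log2 ratio of Nsf2 was 0.26 in males and -1.10 in females, a difference of 1.36. The same 4 values give its sex ratio, 0.54 in mutants and -0.82 in wild type, a difference of -1.36 taken as wild type minus mutants. Among cells numbered above 96, the genotype ratio of Nsf2 was -0.07 in males and -0.85 in females. Its sex ratio there was 0.44 in mutants and -0.33 in wild type. For Spn the sex ratio was -0.07 in mutants and 0.73 in wild type, a difference of 0.80, also taken as wild type minus mutants. Among cells numbered above 96 the Spn sex ratio was 0.23 in mutants and 0.26 in wild type. These differences were not tested, since each group was 1 sample.

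Signal was also present in cells and genes outside the comparisons. The 14 kept cells with under 100 CPM of Tdc2 had 18362 CPM of the 31 genes in all, with a lowest, median and highest value per cell of 0, 17035 and 24911 CPM, and had 1749 CPM of nSyb. The cell at 0 was the 1 such mutant female cell, with 464233 counts, which allows up to 3 counts of the 31 genes. The genes listed under another symbol had means over the 4 groups of 458 CPM for Tomosyn, 421 CPM for Rbp, 109.4 CPM for RhoGAP100F and 892 CPM for EndoA.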

How the results depend on the processing

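Of the 2263 ratios of single genes recomputed under alternatives, 1314 stayed within their counting interval, 948 moved and 1 reversed: AP-2alpha, mutant over wild type in males, at -0.039 among cells numbered above 96. The changed CPM minimums and the addition of the genes under another symbol could not alter the ratio of a single gene. Their outcomes were fixed in advance and are counted among those that stayed. Only ratios at least 1.5-fold apart as reported could count as reversed. Smaller ratios that changed sign were counted with the others, such as Nsf2 for genotype in males, at -0.07 above 96. The number of genes at least 1.5-fold apart was 2 for genotype in males, 1 for genotype in females, 2 for sex in mutants and 8 for sex in wild type. For genotype in males it was 10 in cells numbered 1 to 96 and 0 above 96 (also 0 there after the length correction), 1 with all kept cells, with the mean of per-cell CPM or without glial-marker cells, and 0 at 2-fold. For genotype in females it was 2 with all kept cells and 0 at a minimum of 100 CPM. For sex in mutants it was 1 without near-identical pairs, at a minimum of 100 CPM or after subtracting length-class medians, 0 at 2-fold, 7 above 96, 5 above 96 with the length correction and 4 with the genes listed under another symbol. For sex in wild type it was 5 at a minimum of 100 CPM or after the length correction, 3 above 96 with that correction and 1 at 2-fold, while it was 11 above 96 or under median-of-ratios scaling and 10 with per-cell CPM averaged or with the genes listed under another symbol. The shares of all genes used that far apart also rose above 96. They were 17.9% higher and 25.5% lower for sex in mutants, and 20.3% higher and 19.2% lower for sex in wild type. For genotype in males they were 17.3% higher and 12.6% lower from 1 to 96. Counts under the remaining settings have no such share beside them. The median sex ratio in mutants was -0.35 above 96, -0.13 without near-identical pairs, -0.0037 after the length correction and 0.086 above 96 with the length correction, where in wild type it was -0.061. The length corrections, the correlations without glial-marker cells and the addition of the genes under another symbol were chosen after seeing the data. So was the setting that kept only cells with at least 100 CPM of Tbh.

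Under median-of-ratios scaling, the median over all genes shifted by -0.11 for sex in wild type and by less than 0.1 in the other comparisons. Only the genotype comparison in males had at least 5 cells a group with running numbers up to 96. No paired analysis was possible because the groups share no replicate numbers that pair samples. With 1 sample a group, the spread between animals is unknown, and low genes such as Nsf2 have no count in many cells.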
